A study of Homo sapiens with 6 samples.

Results

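Merged loci are rows of a gene expression table in which 2 or more annotated genes share 1 read count, so that a change of the row cannot be assigned to any of the genes it names. They were chosen by measured values: a row was taken when its symbol field joined at least 2 symbols and its FPKM, the deposited level scaled to row length and library total, reached 1 in at least 3 of 6 libraries. Of 66381 rows, 1248 named 2 or more genes and 831 of these met the level rule, among 11260 rows that name any gene and met it. The libraries were polyadenylated RNA of MDA-MB-231 cells, a line from a triple-negative breast cancer. The control group held 3 libraries, titled with nc, and the mimic group held 3. In the title of the series stand the microRNA miR-5001-5p, the cytokine TNF-α and the kinases MNK2a and p38. The labels give the cell line and the group, and the mimic's sequence and dose and the time after treatment were not stated in them. Nothing in them says that the 3 libraries of a group came from separate cultures, so p-values measure the spread between these libraries, which may be technical. Library totals ran from 31643826 to 32363456 counts. The cell line's markers VIM, CD44, AXL, CAV1 and MSN were above 12 FPKM in every library, ESR1, EPCAM, CDH1, PTPRC and PECAM1 stayed below 0.25 FPKM, and SPARC, also listed as a marker of the line, was near 0. Luminal markers ERBB2, GATA3 and FOXA1 lay between 1.15 and 4.71 FPKM. For PGR, CD3E and COL1A2 the marker lookup found no row, so no level can be given.

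Neighbouring genes end up in 1 locus in several ways. A small RNA gene, such as a snoRNA that guides RNA modification or a microRNA that lowers the mRNAs it pairs with, is often encoded inside an intron or exon of a host gene. Adjacent genes on the same strand can also be joined by readthrough transcripts, which start in the upstream gene and run into the next, and a transcript assembler that meets overlapping exons places all of them in 1 locus. In the text a merged locus is written with slashes in the order of the table, for example EIF4E/TBCAP3.

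The mature sequence of the microRNA in the series title is shown first, with the mature sequences of microRNA genes that lie in loci that passed the test, because these microRNAs cannot be read from the row they share. Sequences are from RefSeq (GRCh38.p14), written 5′ to 3′ with the seed, bases 2 to 8, in capitals. No 2 of the microRNAs shown share a seed.
hsa-miR-5001-5p, chr2:232550530-232550553, - strand: aGGGCUGGacucagcggcggagcu
hsa-miR-671-5p, chr7:151238449-151238471, + strand: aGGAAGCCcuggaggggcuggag
hsa-miR-671-3p, chr7:151238488-151238508, + strand: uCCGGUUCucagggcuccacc
hsa-miR-5010-5p, chr17:42514208-42514229, + strand: aGGGGGAUggcagagcaaaauu
hsa-miR-5010-3p, chr17:42514267-42514288, + strand: uUUUGUGUcucccauuccccag
hsa-miR-6839-5p, chr7:64679069-64679090, + strand: uCUGGAUUgaagagacgaccca
hsa-miR-6839-3p, chr7:64679155-64679176, + strand: uUGGGUUUucucuucaauccag
hsa-miR-1248, chr3:186786675-186786701, + strand: aCCUUCUUguauaagcacugugcuaaa
hsa-miR-137-3p, chr1:98046091-98046113, - strand: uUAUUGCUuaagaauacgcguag
hsa-miR-137-5p, chr1:98046127-98046149, - strand: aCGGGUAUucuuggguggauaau
hsa-miR-2682-5p, chr1:98045307-98045329, - strand: cAGGCAGUgacuguucagacguc
hsa-miR-2682-3p, chr1:98045271-98045292, - strand: cGCCUCUUcagcgcugucuucc

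The second set shows the first occurrence of the heptamers AGTACAA or GTACAAA in the 3′ UTR of 9 genes of merged loci. Their loci were higher or, for IFIT2, lower in mimic. Both heptamers came from an earlier scan of fold changes in these same libraries. A difference in their share between higher and lower loci was thus selected for and is no independent evidence. Each is a window of 30 bases from GENCODE 29 transcripts (GRCh38), with the heptamer in capitals.
ALDH9A1, chr1:165662961-165662990, - strand: tttacagaggcAGTACAActgaatgttatt
GTF2H3, chr12:123661288-123661317, + strand: agcacatatttGTACAAAgagtttaaggaa
PPP3R1, chr2:68180533-68180562, - strand: caaaacaatagAGTACAAaagtgccaagca
CALM2, chr2:47160727-47160756, - strand: ttaaatttcttGTACAAAattgtttatttg
KDELR2, chr7:6462916-6462945, - strand: tttattactgtGTACAAAgatttttttaca
DAGLB, chr7:6409385-6409414, - strand: gcttcctggatGTACAAAtggaactgtggt
EIF4E, chr4:98880085-98880114, - strand: attaagacagtGTACAAAactgtaaataaa
HSPA1B, chr6:31830025-31830054, + strand: attatttttgtAGTACAAccgatatgttca
IFIT2, chr10:89308015-89308044, + strand: agaagcgacggGTACAAAaagcaatgtgta

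The 831 merged loci pooled 2041 genes, none of them in more than 1 locus. Of the loci, 536 named 2 symbols, 247 named 3 and 48 named 4 or more, up to 9. Every locus lay on 1 strand of 1 chromosome, 452 on the + strand and 379 on the - strand. By gene class, 1183 of the named genes were protein-coding, 275 were long noncoding RNA genes, 244 were readthrough genes, 164 were pseudogenes, 75 were snoRNA genes, 72 were other small RNA genes and 19 were microRNA genes, while 9 identifiers had no entry in GENCODE 29. Thus 384 loci held 2 or more protein-coding genes other than readthrough genes, 384 held 1 and 63 held none.

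The genes of a locus were placed in 3 ways. In 305 loci 1 gene enclosed all the others, in 417 the genes overlapped in part, and in 109 at least 1 pair was separated by a gap, with a median gap of 5284 bp. The widest gaps, of 1104070 and 768235 bp, were in TSPAN7/AC245096.1/PRRG1 and PDGFRA/FIP1L1. Annotated exons linked all genes of the locus in 661 loci and left them in separate groups in 170. On the opposite strand, 634 of the 831 loci overlapped an annotated gene and 332 overlapped a protein-coding one. No source used here says whether reads were counted by strand, and opposite genes cannot be told apart from the locus.

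Pooling also set the length to which FPKM were scaled. The row length, recovered from counts and FPKM, equalled the union of the annotated exons of all named genes in 421 loci, exceeded it in 380 and fell short of it in 30, and in 61 it was over 2 times the union. The median row length was 8566 bp, against 5205 bp in the 10429 single-gene rows. A gene's FPKM in a merged locus is therefore spread over the exons of its partners and is not comparable with the level of a gene that has its own row. The median mean FPKM was 5.46 in merged loci and 6.51 in single-gene rows.

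**Figure D1:**
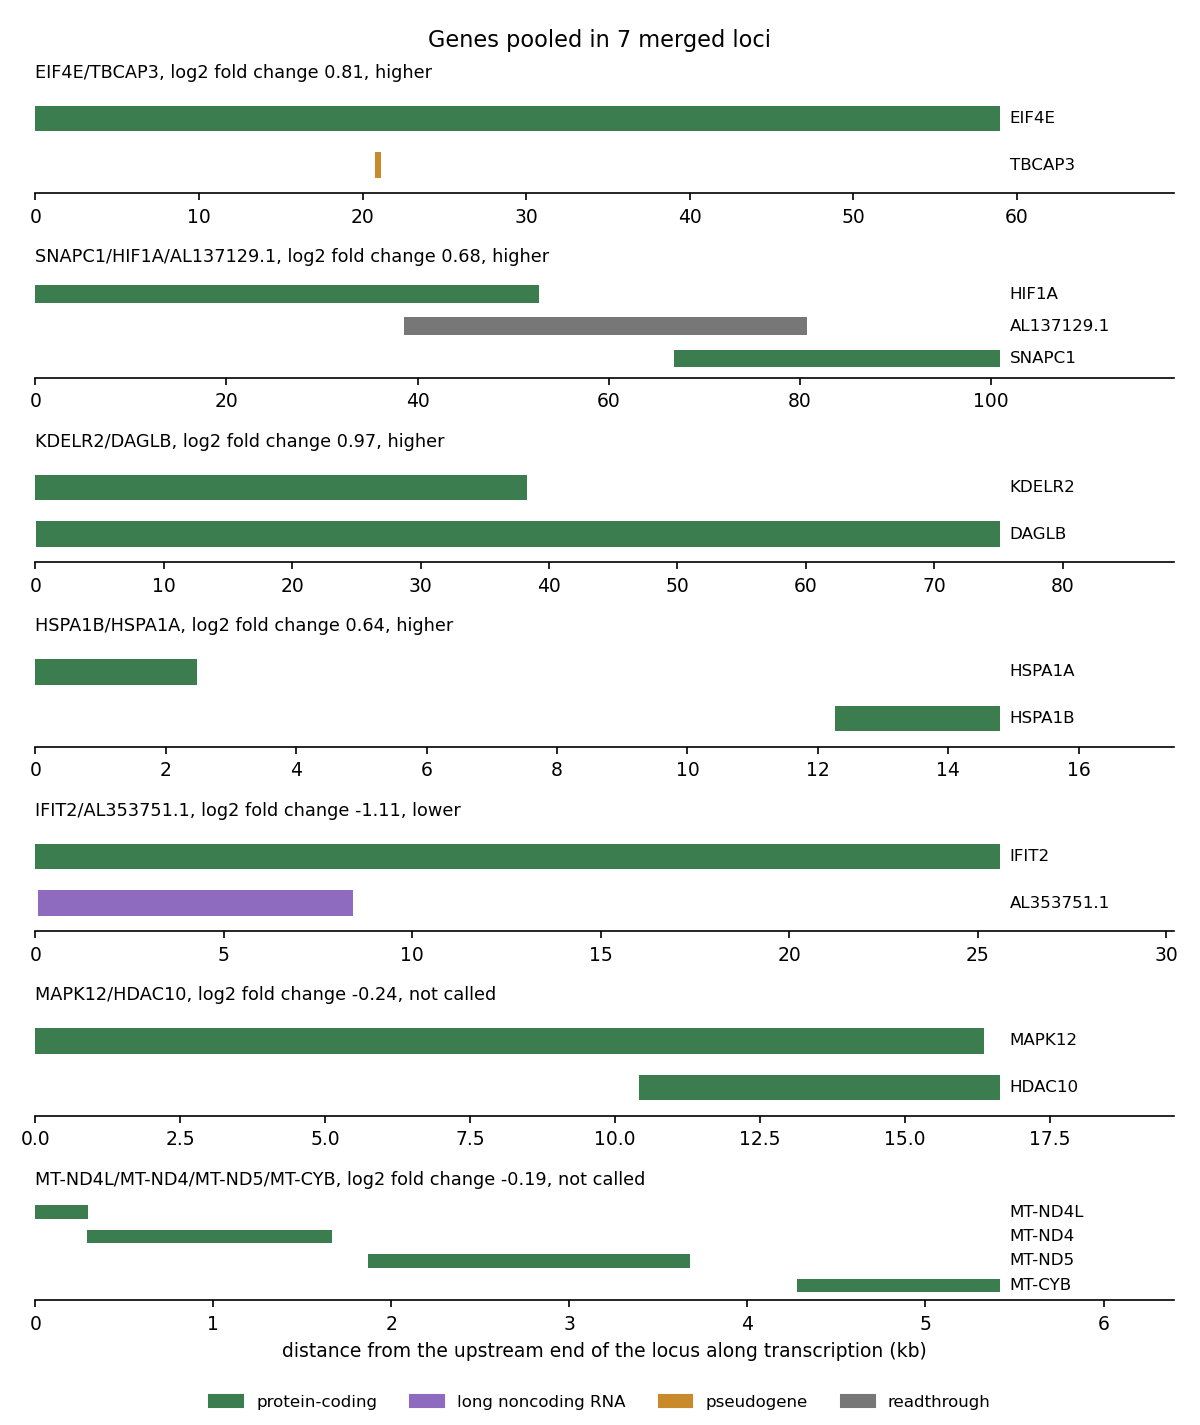
Gene extents in 7 merged loci, with the distance from the upstream end of the locus in kb along the direction of transcription on each horizontal axis; 1 bar is 1 gene, coloured by class. EIF4E encloses the pseudogene TBCAP3, HSPA1A and HSPA1B lie apart, and 4 mitochondrial genes lie in a row.

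At an adjusted p under 0.05 in edgeR's quasi-likelihood test, with p-values adjusted over all 11260 rows tested, 84 merged loci were higher and 82 were lower in mimic and 665 passed in neither direction. That is 19.98% of the 831 loci called, beside 22.3% of all rows tested. The higher loci made up 10.1% of merged loci, beside 13.6% of all rows, and the lower loci 9.87%, beside 8.63% of all rows. The share called was thus close to the background, and the called loci were split evenly between the directions, whereas 1534 rows were higher and 972 lower over the whole table. The even split did not hold in most fits that left out 1 library. In these fits 51.3 to 65.0% of called merged loci were higher, beside 61.6 to 68.1% of all called rows. With all libraries the shares were 50.6% and 61.2%. The split also rests on the scaling of the libraries: with libraries scaled to their totals instead of by TMM, 55 merged loci were higher and 156 were lower. Over all rows the same scaling gave 1136 higher, 10.1%, and 1783 lower, 15.8%, and the median log2 fold change moved from -0.01 to -0.09. The median log2 fold change of merged loci was -0.04, with a middle range of -0.20 to 0.13, and its median size was 0.18, beside 0.19 over all rows tested. Members that were higher had a median change of 1.38-fold and members that were lower 1.29-fold. The count of 82 lower loci fell to 34 to 45 when control replicate 1, 2 or 3 or mimic replicate 1 or 2 was left out, and to 73 without mimic replicate 3. Lower calls over all 11260 rows fell as well, from 972 to between 503 and 692, and to 854 without mimic replicate 3. Changes of at least 2-fold were called in 7 higher and 2 lower loci, beside 150 higher rows, 1.33%, and 35 lower rows, 0.311%, of all 11260. The 84 higher and 82 lower loci include 4 that met the level rule through 1 group alone. For these the level rule and the call are not independent. S1PR3/C9orf47, which met the rule through the mimic group alone, is among the 7.

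The values behind the choice at the threshold were as follows. The loci nearest inside it were WDR7-OT1/WDR7 and AMY2B/ACTG1P4/RNPC3, both at 1.01 FPKM in the third highest library, and the nearest outside was CFI/AC126283.2/PLA2G12A at 0.996 FPKM. Another 8 loci passed through 1 group alone, 6 with all control libraries and 2 with all mimic libraries at or above 1 FPKM and none of the other group, and 4 of these 8 were among the called loci. They include S1PR3/C9orf47.

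**Figure D2:**
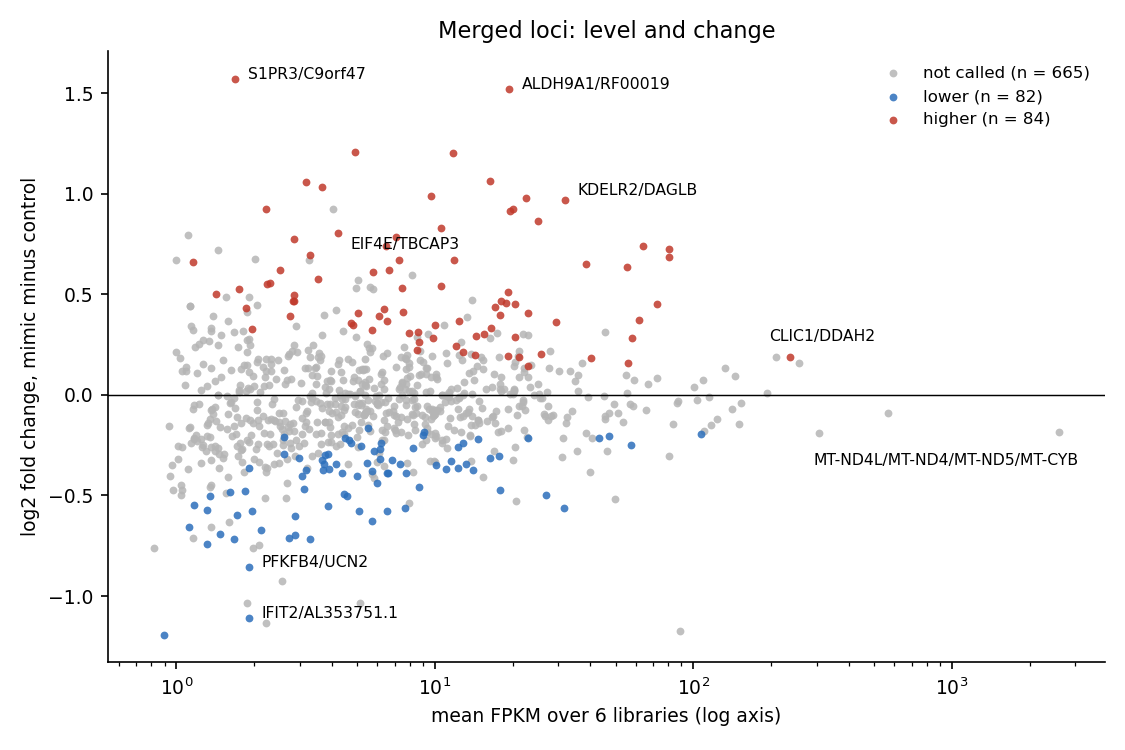
Log2 fold change (mimic minus control) against the mean FPKM of 6 libraries (log axis) for the 831 merged loci; 1 point is 1 locus, red for the 84 higher, blue for the 82 lower and grey for the 665 not called. The uppermost point, S1PR3/C9orf47, met the level rule through the mimic group alone, the next is ALDH9A1/RF00019 at 1.52, and the locus of highest level, with 4 mitochondrial genes, is not called.

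Among loci that were higher, the largest change at a substantial level was in ALDH9A1/RF00019 (chr1:165662216-165698863, - strand), where the gene of an aldehyde dehydrogenase used in carnitine synthesis encloses a sequence of the Y RNA family. It was at 10.03, 10.6 and 10.6 FPKM in control replicates 1 to 3 and 27.3, 27.96 and 29.8 FPKM in mimic replicates 1 to 3. All mimic libraries lay far above all control libraries, and the locus rose 2.87-fold (log2 fold change 1.52 ± 0.07 (SE), adjusted p = 5.3e-05). S1PR3/C9orf47, which names a receptor for sphingosine 1-phosphate, was at 0.944, 0.733 and 0.975 FPKM in control replicates 1 to 3 and 3.01, 2.14 and 2.34 FPKM in mimic replicates 1 to 3. Every control library was below 1 FPKM, so the locus met the level rule through the mimic group alone, and its values are given as a description without a test.

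Further loci with 1 protein-coding gene included RF00019/PAQR5, which names a membrane progestin receptor, at 3.79, 2.47 and 2.98 FPKM in control and 7.64, 6.40 and 6.19 FPKM in mimic (log2 fold change 1.21 ± 0.16 (SE), adjusted p = 0.0032). GTF2H3/AC117503.2 names a subunit of the transcription and repair factor TFIIH, and it was at 7.28, 7.30 and 7.52 FPKM in control and 16.03, 17.05 and 15.1 FPKM in mimic. It rose 2.30-fold with no overlap between the groups (log2 fold change 1.20 ± 0.07 (SE), adjusted p = 9.1e-05). AC092718.4/CENPN, with a centromere protein, was at 6.49, 7.43 and 6.28 FPKM in control and 12.96, 13.9 and 11.2 FPKM in mimic (log2 fold change 0.99 ± 0.10 (SE), adjusted p = 0.0011). The ubiquitin ligase locus ARIH1/AC100827.3 was at 1.65, 1.56 and 1.56 FPKM in control and 2.91, 2.64 and 3.04 FPKM in mimic (log2 fold change 0.93 ± 0.08 (SE), adjusted p = 0.00038). In each of these the lowest mimic library exceeded the highest control library.

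Several of the higher loci joined 2 protein-coding genes, and there the row does not say which gene carries the change. KDELR2/DAGLB (chr7:6409126-6484242, - strand) joins a receptor that returns escaped proteins to the endoplasmic reticulum with a lipase that makes an endocannabinoid, and the 2 genes start next to each other. It was at 22.6, 21.8 and 22.3 FPKM in control replicates 1 to 3 and 42.9, 41.8 and 39.3 FPKM in mimic replicates 1 to 3. Mimic libraries were about 2 times the control libraries, and the spread within groups was small (log2 fold change 0.97 ± 0.04 (SE), adjusted p = 5.8e-05). PPP3R1/WDR92/AC017083.3, which names the regulatory subunit of the phosphatase calcineurin, was at 10.7, 11.1 and 11.2 FPKM in control and 21.9, 22.4 and 20.9 FPKM in mimic (log2 fold change 1.06 ± 0.05 (SE), adjusted p = 5.8e-05). STPG4/CALM2, where a gap of 4703 bp separates the calmodulin gene CALM2 from its neighbour, was at 15.9, 16.01 and 15.02 FPKM in control and 28.2, 30.1 and 29.7 FPKM in mimic (log2 fold change 0.98 ± 0.05 (SE), adjusted p = 7.6e-05).

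CYP51A1/LRRD1, with a lanosterol demethylase of cholesterol synthesis, was at 14.4, 14.4 and 14.2 FPKM in control and 25.9, 25.1 and 26.5 FPKM in mimic (log2 fold change 0.92 ± 0.04 (SE), adjusted p = 6.2e-05). NT5C1B/RDH14/NT5C1B-RDH14, a nucleotidase gene and a retinol dehydrogenase gene with their readthrough gene, was at 2.26, 2.20 and 1.96 FPKM in control and 4.26, 4.28 and 4.13 FPKM in mimic (log2 fold change 1.06 ± 0.09 (SE), adjusted p = 0.00049). The groups did not overlap in either locus. Outside the rule for named loci and chosen after its values were seen, SNAPC1/HIF1A/AL137129.1 holds HIF1A, the oxygen-regulated transcription factor. It was at 69.5, 58.3 and 63.5 FPKM in control and 100.1, 98.1 and 93.1 FPKM in mimic (log2 fold change 0.68 ± 0.07 (SE), adjusted p = 0.0008), again with no overlap, and HIF1A and SNAPC1 are joined there by AL137129.1, which spans the space between them.

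Among loci that were lower, IFIT2/AL353751.1 (chr10:89283694-89309276, + strand) changed most at or above the level set for named loci. IFIT2 is an interferon-induced protein that binds RNA and limits translation. The locus was at 2.77, 2.60 and 2.58 FPKM in control replicates 1 to 3 and 1.10, 1.23 and 1.16 FPKM in mimic replicates 1 to 3. Every mimic library was below every control library, and the locus fell 2.16-fold (log2 fold change -1.11 ± 0.11 (SE), adjusted p = 0.00073). RF00019/GBP3 names a guanylate-binding protein that is also interferon-induced, and it was at 8.29, 8.32 and 7.34 FPKM in control and 5.42, 4.50 and 5.30 FPKM in mimic (log2 fold change -0.58 ± 0.10 (SE), adjusted p = 0.0092). PFKFB4/UCN2, an enzyme that sets the level of a glycolysis regulator beside the hormone gene urocortin 2, was at 2.37, 2.54 and 2.62 FPKM in control and 1.35, 1.09 and 1.52 FPKM in mimic (log2 fold change -0.85 ± 0.14 (SE), adjusted p = 0.0067). The control libraries were the higher ones in both, without overlap.

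C15orf48/HMGN2P46/AC025580.2, which names a small mitochondrial protein, was at 2.65, 2.40 and 2.93 FPKM in control and 1.72, 1.40 and 1.63 FPKM in mimic (log2 fold change -0.67 ± 0.12 (SE), adjusted p = 0.0095). IPP/AL604028.1, with an actin-binding kelch protein, was at 3.46, 3.61 and 3.54 FPKM in control and 2.30, 2.24 and 2.08 FPKM in mimic (log2 fold change -0.60 ± 0.09 (SE), adjusted p = 0.0039). The calls of the loci tested so far, which leaves S1PR3/C9orf47 aside, held when any 1 library was left out. That was not so for 6 further lower loci of the 12 with the largest change, each with groups that did not overlap: SNORA57/CSKMT (log2 fold change -0.72 ± 0.19 (SE), adjusted p = 0.035), ZNF324/ZNF446 (-0.72, adjusted p = 0.021), ARMCX5/GPRASP2/ARMCX5-GPRASP2 (-0.71, adjusted p = 0.026), the RAB4B and EGLN2 locus CYP2G1P/RAB4B-EGLN2/RAB4B/EGLN2/AC008537.1 (-0.70, adjusted p = 0.019), ZNF107/MIR6839 (-0.60, adjusted p = 0.015) and TKFC/AP003108.3 (-0.58, adjusted p = 0.024). Their highest adjusted p with 1 library left out lay between 0.054 and 0.102. Of all 166 called loci, 72 passed in all 6 fits that left out 1 library, 49 of the 84 higher and 23 of the 82 lower. The same count was not taken over all called rows. In those fits lower calls over all rows fell from 972 to between 503 and 854, and higher calls from 1534 to between 1073 and 1368.

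**Figure D3:**
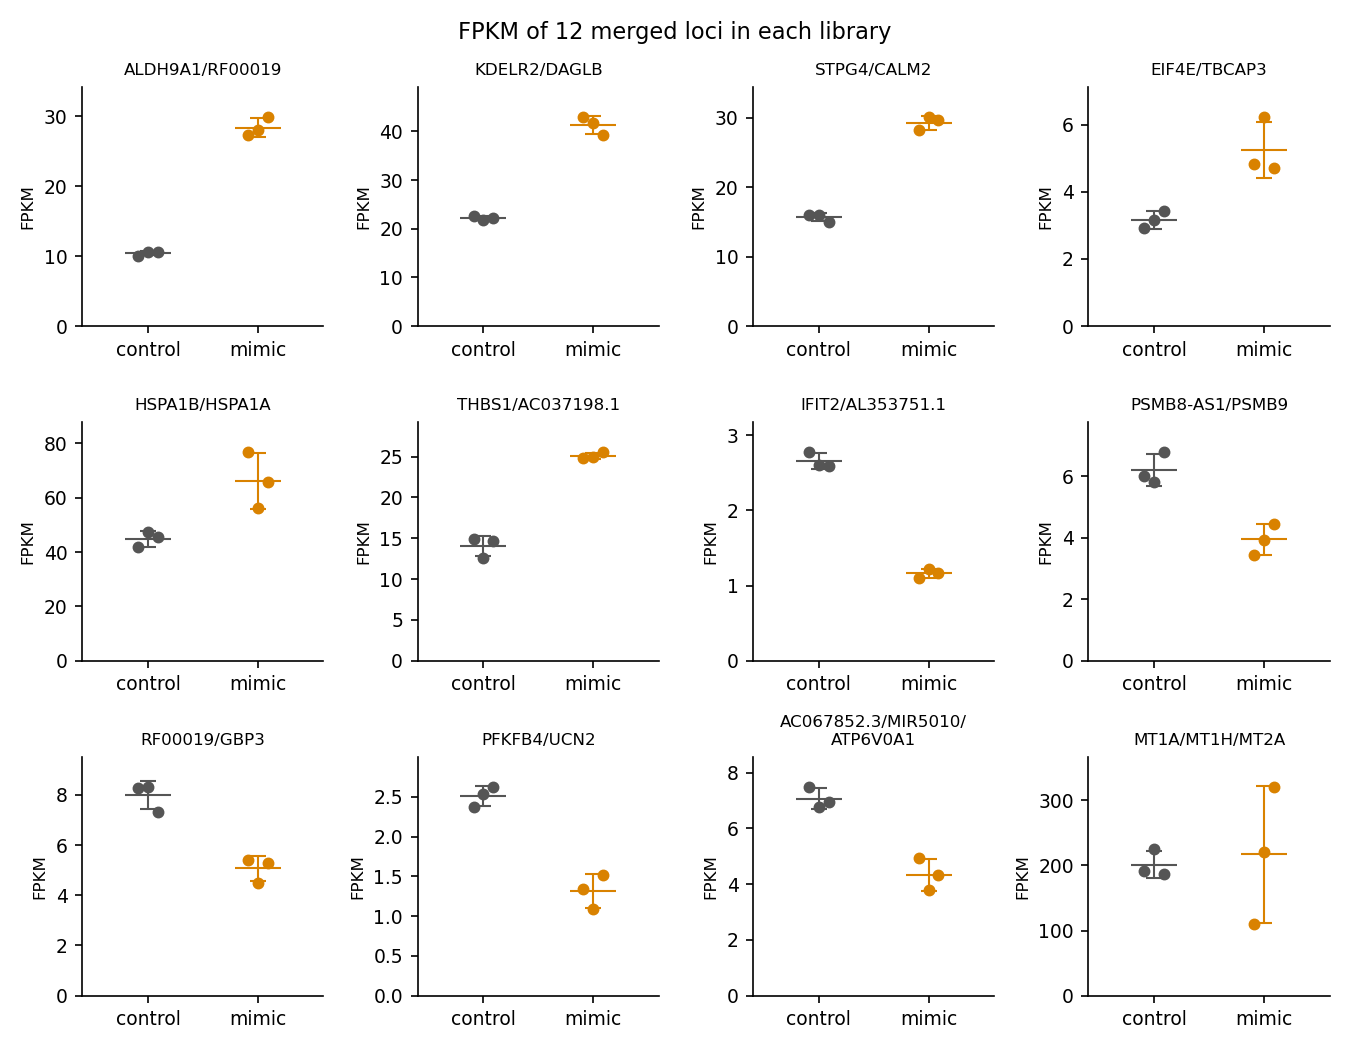
FPKM (vertical axis, starting at 0) of 12 merged loci in the 3 control and 3 mimic libraries; points are libraries, the long dash is the mean and the error bar is the SD. ALDH9A1/RF00019 goes from about 10 to above 27 FPKM, IFIT2/AL353751.1 from above 2.5 to below 1.3, and MT1A/MT1H/MT2A spreads from 110 to 321 FPKM within the mimic group.

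Calls were then counted by arrangement and by the kind of gene in the locus, as a description beside the 22.3% of all rows. Nested loci had 37 higher and 28 lower of 305, loci with partial overlap 41 and 46 of 417, and loci with a gap 6 and 8 of 109. Of the 384 loci with 2 or more protein-coding genes 41 were higher and 46 lower, and of the 384 with 1 such gene 40 were higher and 34 lower. The 63 loci with no protein-coding gene had 3 higher and 2 lower. Loci with a readthrough gene had 20 higher and 29 lower of 229, and those with a pseudogene had 13 higher and 6 lower of 136. A long noncoding RNA gene was present in 252 loci, of which 25 were higher and 26 lower, and a snoRNA gene in 47, of which 3 were higher and 4 lower.

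**Figure D4:**
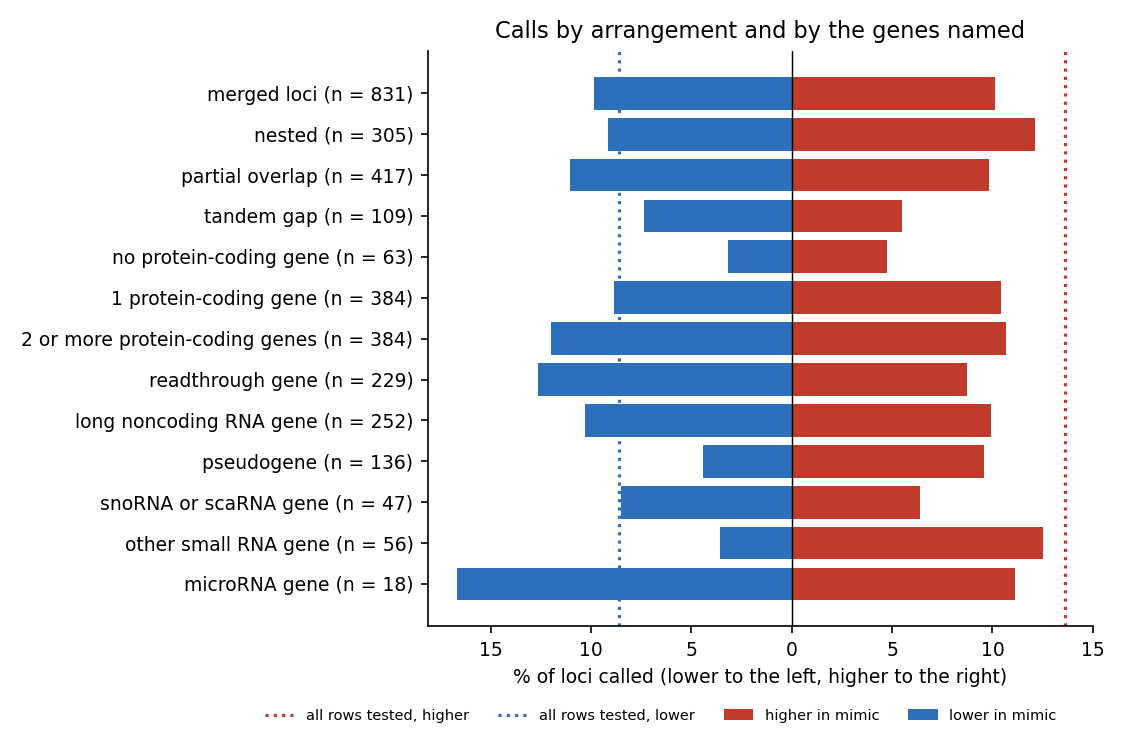
Share of merged loci called lower (bars to the left) and higher (bars to the right) in mimic, in % of the loci of each class; dotted lines mark the shares over all 11260 rows tested, 8.63% lower and 13.6% higher. A locus can stand in several partner classes; the 63 loci with no protein-coding gene have the shortest pair of bars and every class shown has fewer higher calls than the background.

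MicroRNA genes lay in 18 merged loci, always beside another gene of the same strand. MIR671/CHPF2 was higher: this locus, where CHPF2 takes part in chondroitin synthesis, was at 2.004, 2.43 and 3.03 FPKM in control and 6.13, 4.19 and 4.17 FPKM in mimic (log2 fold change 1.03 ± 0.21 (SE), adjusted p = 0.014). Mimic replicate 1 was the highest library and the groups did not overlap. The locus of MIR137, MIR2682, their host gene and BX005019.1 was at 4.20, 4.52 and 4.15 FPKM in control and 5.22, 5.13 and 5.26 FPKM in mimic (log2 fold change 0.36 ± 0.06 (SE), adjusted p = 0.0067). AC067852.3/MIR5010/ATP6V0A1, with a subunit of the proton pump that acidifies vesicles, was lower at 7.49, 6.78 and 6.94 FPKM in control and 4.93, 3.77 and 4.33 FPKM in mimic (log2 fold change -0.63 ± 0.10 (SE), adjusted p = 0.0065). ZNF107/MIR6839 was at 2.12, 2.19 and 2.02 FPKM in control and 1.24, 1.53 and 1.19 FPKM in mimic and was also lower, as given above.

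The locus of EIF4A2, a helicase of translation initiation that hosts MIR1248 and several snoRNAs, was at 113, 118 and 119 FPKM in control and 94.8, 103 and 92.5 FPKM in mimic (log2 fold change -0.19 ± 0.05 (SE), adjusted p = 0.036). Its call was lost in 5 of 6 fits that left out 1 library. The other 13 loci with a microRNA gene, among them HNRNPK/MIR7-1 and KHSRP/MIR3940, did not pass. Libraries of polyadenylated RNA do not measure the mature microRNAs printed above, and the sequences stand only for what these rows name. The MIR5001 hairpin itself overlapped 2 rows of the table, EIF4E2 on the opposite strand and TIGD1, and neither is a merged locus.

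The loci of highest level were mostly mitochondrial genes and ribosomal protein genes with snoRNAs inside them, and 5 of the 6 highest did not pass. MT-ND4L/MT-ND4/MT-ND5/MT-CYB, a run of 4 protein-coding genes of the mitochondrial genome, was at 2879, 2691 and 2968 FPKM in control replicates 1 to 3 and 2509, 2194 and 2414 FPKM in mimic replicates 1 to 3. All mimic libraries were below all control libraries, yet the change did not pass (log2 fold change -0.19 ± 0.06 (SE), adjusted p = 0.074); with libraries scaled to their totals it did (adjusted p = 0.021). The row is 8767 bp long while the 4 genes together cover 4621 bp, so it also holds sequence outside them.

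RPS2/SNORA10/AC005363.1/SNORA64 was at 590.03, 593 and 607 FPKM in control and 517, 576 and 503 FPKM in mimic (log2 fold change -0.09 ± 0.06 (SE), adjusted p = 0.31). RPLP2/SNORA52 was at 324, 358 and 324 FPKM in control and 255, 255 and 326 FPKM in mimic (log2 fold change -0.19 ± 0.11 (SE), adjusted p = 0.26), and SNORA70/RPL10 at 241, 259.96 and 248 FPKM in control and 231, 272 and 289 FPKM in mimic (log2 fold change 0.16 ± 0.09 (SE), adjusted p = 0.25). By FPKM, which are scaled to library totals and not by TMM, the groups overlapped in RPLP2/SNORA52 and SNORA70/RPL10 and not in the RPS2 locus. None of these ribosomal loci passed. CLIC1/DDAH2, which joins a chloride channel protein with an enzyme that degrades inhibitors of nitric oxide synthesis, was at 226, 225 and 232 FPKM in control and 242, 244 and 252 FPKM in mimic. The shift was small with no overlap and passed (log2 fold change 0.19 ± 0.04 (SE), adjusted p = 0.016), but not with libraries scaled to their totals (adjusted p = 0.072), nor without control replicate 1 or control replicate 2 (adjusted p = 0.068 and 0.058). MT1A/MT1H/MT2A, a cluster of metal-binding metallothioneins of similar sequence, was at 191, 226 and 187 FPKM in control and 110.3, 221 and 321 FPKM in mimic (log2 fold change 0.19 ± 0.34 (SE), adjusted p = 0.73). Its mimic libraries lay on both sides of the control libraries.

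The share of all counts held by rows that name 2 or more genes was 10.9, 10.9 and 11.03% in control and 10.2, 10.2 and 10.5% in mimic, or 10.9% ± 0.0770 and 10.3% ± 0.155 (mean ± SD, n = 3). The groups did not overlap, and the exact two-sided permutation test gave p = 0.1, the smallest p that 3 against 3 libraries allow. The mitochondrial locus alone went from 2.49% ± 0.124 to 2.08% ± 0.142, and it accounted for 63.1% of the counts that the 831 loci lost in mimic. Without it the share was 8.45% ± 0.0580 in control and 8.20% ± 0.169 in mimic, still with no overlap (exact p = 0.1). All mitochondrial rows together held 5.08% ± 0.0547 of counts in control and 4.38% ± 0.174 in mimic (exact p = 0.1). The part of mitochondrial RNA in the changes of other loci was not tested. In a fit without these rows the counts of 84 higher and 82 lower loci stayed the same. That fit cannot measure this part, since leaving out these rows hardly alters the TMM scaling.

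**Figure D5:**
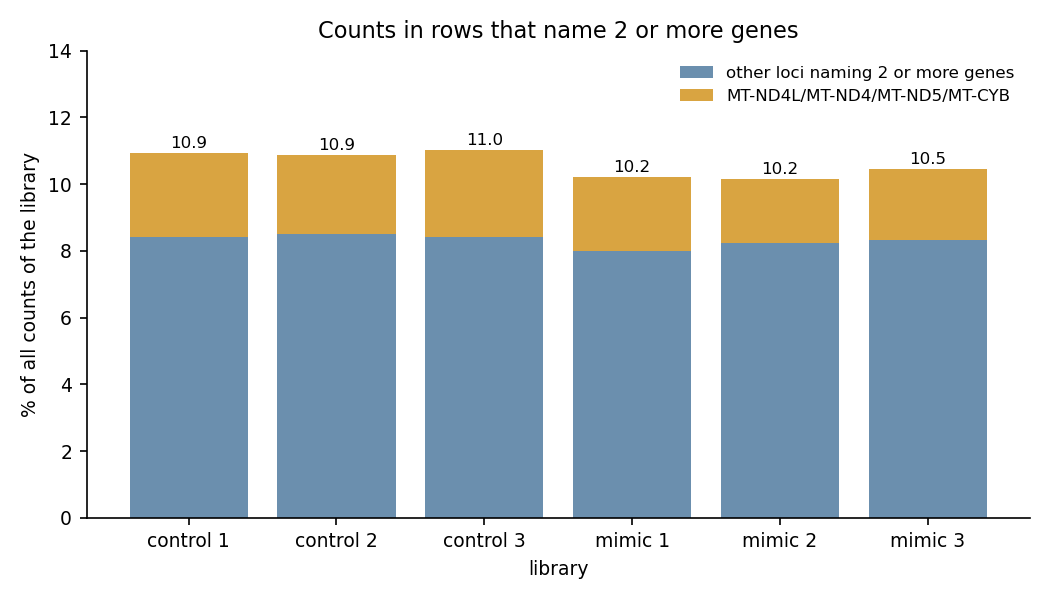
Share of each library's counts, in %, in rows that name 2 or more genes (bars from 0); the upper section of a bar is the mitochondrial locus and the lower section all other such rows. Control libraries total 10.9 to 11.03% and mimic libraries 10.2 to 10.5%.

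The 3 loci that named most symbols were not among the strongest changes. The ST7 locus, with 9 symbols of which most are RNA family entries nested in ST7, was at 2.02, 2.21 and 2.12 FPKM in control and 2.29, 1.98 and 2.36 FPKM in mimic (log2 fold change 0.14 ± 0.10 (SE), adjusted p = 0.37). SENP3, EIF4A1 and the macrophage antigen gene CD68 shared 1 locus of 8 symbols, at 44.6, 46.9 and 47.7 FPKM in control and 45.9, 42.5 and 43.2 FPKM in mimic (log2 fold change -0.0039, adjusted p = 0.96). A cluster of zinc finger genes with 8 symbols, among them ZNF816, ZNF468 and ZNF320, was at 1.99, 1.76 and 1.62 FPKM in control and 2.27, 2.06 and 2.05 FPKM in mimic and passed (log2 fold change 0.33 ± 0.09 (SE), adjusted p = 0.039), although in only 1 of 6 fits that left out 1 library. Zinc finger genes of 1 cluster are alike in sequence, so reads may be shared with further copies.

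Genes of pathways that the series title or the cell type brings up were looked up in 14 lists written from textbook knowledge. Of 722 list genes measured, 95 had no row of their own and were measured only in merged loci. The share was largest for the protocadherin clusters, with 6 of 7 measured genes in 3 loci, then for the cytosolic ribosomal proteins, with 21 of 80, and for the interferon response and antigen presentation, with 8 of 37. It was smallest for the invasion, adhesion and matrix list, with 3 of 55.

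In the list of p38, MNK and MAPK signalling, 5 of 45 measured genes lay in merged loci, of which 2 were higher and none lower, beside 13.6% and 8.63% of all rows, with a median log2 fold change of 0.07. EIF4E encodes the protein that binds the cap of mRNAs and is a substrate of the MNK kinases. Its locus EIF4E/TBCAP3 (chr4:98871684-98930637, - strand), where a pseudogene lies inside the gene, was at 2.91, 3.15 and 3.43 FPKM in control replicates 1 to 3 and 4.82, 6.22 and 4.70 FPKM in mimic replicates 1 to 3. The groups did not overlap and mimic replicate 2 was the highest (log2 fold change 0.81 ± 0.12 (SE), adjusted p = 0.0052). ATF2/RF02271, with a transcription factor that p38 and JNK phosphorylate, was at 9.20, 10.3 and 8.998 FPKM in control and 14.5, 15.05 and 13.4 FPKM in mimic (log2 fold change 0.67 ± 0.08 (SE), adjusted p = 0.0015), without overlap.

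Genes of MAPK pathway kinases in merged loci did not pass. MAPK12 encodes a p38 kinase and overlaps the histone deacetylase gene HDAC10, and MAPK12/HDAC10 was at 4.74, 3.96 and 4.43 FPKM in control and 3.48, 3.52 and 3.56 FPKM in mimic (log2 fold change -0.24 ± 0.08 (SE), adjusted p = 0.075). Mimic libraries were all below the control libraries, and with libraries scaled to their totals the locus passed (adjusted p = 0.029). MAPKAPK5/ADAM1A, with a kinase activated by p38, was at 2.40, 2.63 and 2.45 FPKM in control and 2.10, 2.24 and 2.17 FPKM in mimic (log2 fold change -0.12 ± 0.07 (SE), adjusted p = 0.29). MOB3C/MKNK1 holds the gene of MNK1, the paralogue of the kinase in the series title, and was at 2.55, 2.57 and 2.90 FPKM in control and 2.88, 2.52 and 2.60 FPKM in mimic (log2 fold change 0.07 ± 0.09 (SE), adjusted p = 0.59). The groups overlapped there, as they did in the phosphatase locus AC003072.1/DUSP18 (log2 fold change -0.16 ± 0.18 (SE), adjusted p = 0.57).

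The list of TNF and NF-kB signalling had 6 of 47 measured genes in 5 merged loci. None of the 5 passed, beside 22.3% called of all rows. AC007283.1/CFLAR, with a regulator that blocks caspase activation at death receptors, was at 1.32, 1.36 and 2.16 FPKM in control and 2.05, 2.51 and 2.75 FPKM in mimic (log2 fold change 0.67 ± 0.21 (SE), adjusted p = 0.063), with control replicate 3 inside the range of the mimic libraries. The decoy receptor TNFRSF6B is not on this list and was named as a TNF receptor gene. It shares a locus with the helicase gene RTEL1, at 4.98, 5.79 and 5.29 FPKM in control and 4.92, 4.31 and 4.99 FPKM in mimic (log2 fold change -0.10 ± 0.09 (SE), adjusted p = 0.47). CHUK/ERLIN1, with an IκB kinase subunit, was at 17.7, 18.4 and 17.8 FPKM in control and 17.2, 19.2 and 16.7 FPKM in mimic (log2 fold change 0.06 ± 0.06 (SE), adjusted p = 0.56). SOD2-OT1/SOD2/SOD2 and TNFSF13/TNFSF12 also did not pass (log2 fold changes -0.15 and -0.19, adjusted p = 0.17 and 0.17). The remaining locus of the list, REL/AC010733.2 with an NF-kB subunit, did not pass either (log2 fold change -0.02, adjusted p = 0.91).

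Of the 6 merged loci with interferon response or antigen presentation genes, 3 were lower and none higher, beside 8.63% lower and 13.6% higher of all rows, with a median log2 fold change of -0.19 beside -0.01 over all rows. They were IFIT2/AL353751.1, described above, PSMB8-AS1/PSMB9 and AL136295.5/RNF31/IRF9. PSMB9 is a subunit of the immunoproteasome, and its locus was at 6.03, 5.82 and 6.79 FPKM in control and 3.45, 3.95 and 4.46 FPKM in mimic (log2 fold change -0.57 ± 0.12 (SE), adjusted p = 0.017). IRF9, the DNA-binding part of the factor that type I interferon activates, shares its locus with RNF31, a ubiquitin ligase subunit, at 5.10, 5.31 and 4.95 FPKM in control and 4.18, 4.19 and 4.09 FPKM in mimic (log2 fold change -0.23 ± 0.06 (SE), adjusted p = 0.038). In both the groups did not overlap; with 1 library left out the PSMB9 call held in 4 of 6 fits and the IRF9 call in none. The 3 that did not pass were IFITM1/IFITM2 (0.28, adjusted p = 0.35), CTRL/PSMB10/AC040162.1 (-0.16, adjusted p = 0.57) and HLA-C/HLA-B (0.02, adjusted p = 0.899), of which the first and the last join related paralogues.

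The list of endoplasmic reticulum folding and stress had 2 higher and no lower among 5 merged loci, beside 13.6% and 8.63% of all rows, with a median log2 fold change of 0.04. HSPA1B/HSPA1A, the stress-induced HSP70 genes, lie apart on chromosome 6 and encode nearly the same protein, so the division of reads between them and with other copies is uncertain. Their locus was at 41.7, 47.4 and 45.7 FPKM in control and 76.8, 56.2 and 65.8 FPKM in mimic (log2 fold change 0.64 ± 0.11 (SE), adjusted p = 0.0087), with no overlap and a wide spread in mimic. DDIT3/AC022506.1, with the stress-induced factor CHOP, was at 6.19, 7.09 and 6.75 FPKM in control and 9.11, 7.63 and 8.53 FPKM in mimic (log2 fold change 0.41 ± 0.12 (SE), adjusted p = 0.046). Its call held in only 1 of 6 fits that left out 1 library. FAU/SYVN1 and HSPE1-MOB4/MOB4/HSPE1 did not pass (-0.09 and -0.09, adjusted p = 0.21 and 0.58).

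Of the 59 cytosolic ribosomal protein genes with a row of their own, 1 was higher and 0 were lower, beside 22.3% called of all rows. None of the 21 merged loci with such genes passed in either direction, with log2 fold changes from -0.54 to 0.16 and a median of -0.09. The lowest adjusted p among them belonged to SNORA7A/RPL32, at 125, 128 and 124 FPKM in control and 104, 109 and 109 FPKM in mimic (log2 fold change -0.15 ± 0.04 (SE), adjusted p = 0.052). NUDT3/RPS10/RPS10-NUDT3 was at 119, 122 and 119.7 FPKM in control and 95.7, 98.2 and 108 FPKM in mimic (log2 fold change -0.18 ± 0.06 (SE), adjusted p = 0.063). Mimic libraries were below control libraries in both, and both passed with libraries scaled to their totals (adjusted p = 0.0095 and 0.014). Ribosomal protein genes have many processed pseudogenes, so their counts are uncertain. Of the 11 merged loci with mitochondrial energy genes 1 was lower and 0 were higher, beside 8.63% and 13.6% of all rows. Of the 64 such genes with a row of their own, 9 were lower and 4 higher. The lower locus was SEC31B/NDUFB8/AL133352.1, which names a subunit of respiratory complex I. It was at 13.8, 14.9 and 13.96 FPKM in control and 10.97, 11.2 and 12.1 FPKM in mimic (log2 fold change -0.24 ± 0.06 (SE), adjusted p = 0.035). Its call held in 1 of 6 fits that left out 1 library, and the median of the 11 loci was -0.11 on the log2 scale.

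In the remaining lists few merged loci passed, and their counts can be read against the same 13.6% higher and 8.63% lower of all rows. The invasion, adhesion and matrix list had 1 higher of 3 loci, THBS1/AC037198.1, with the matrix glycoprotein thrombospondin 1. It was at 14.9, 12.6 and 14.6 FPKM in control and 24.8, 24.9 and 25.5 FPKM in mimic (log2 fold change 0.91 ± 0.07 (SE), adjusted p = 0.00026), with all mimic libraries above all control libraries. CEP295NL/TIMP2 and TGFB2-OT1/TGFB2 did not pass (-0.33 and 0.12, adjusted p = 0.54 and 0.71). The proteasome and ubiquitin list had 1 higher and 1 lower of 4 loci. PSMA1/AC018523.2/COPB1, a proteasome subunit with a coat protein of vesicles, was higher at 62.7, 63.3 and 63.5 FPKM in control and 82.3, 88.5 and 75.1 FPKM in mimic (log2 fold change 0.45 ± 0.06 (SE), adjusted p = 0.0029), and TMEM189-UBE2V1/TMEM189/UBE2V1, with a ubiquitin-conjugating enzyme variant, was lower at 19.8, 20.9 and 22.9 FPKM in control and 13.9, 14.4 and 15.04 FPKM in mimic (log2 fold change -0.47 ± 0.07 (SE), adjusted p = 0.0037).

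Mitosis had 1 higher of 4 loci, BUB1B-PAK6/BUB1B/PAK6 with a spindle checkpoint kinase, at 6.89, 7.997 and 6.99 FPKM in control and 8.24, 8.88 and 8.53 FPKM in mimic (log2 fold change 0.31 ± 0.08 (SE), adjusted p = 0.031). DNA replication and repair had 1 lower of 6, SAPCD1/MSH5-SAPCD1/MSH5 with a meiotic MutS homologue, at 4.14, 4.60 and 4.36 FPKM in control and 3.17, 3.52 and 3.43 FPKM in mimic (log2 fold change -0.29 ± 0.08 (SE), adjusted p = 0.043). The first held in 2 of 6 fits that left out 1 library and the second in none. Translation factors had 1 lower of 5, the EIF4A2 locus above. No locus passed among the 6 with splicing genes, the 3 with microRNA silencing and mRNA decay genes and the 3 with protocadherins. AC067931.1/AGO2, which names the Argonaute protein that carries microRNAs, was at 51.5, 53.5 and 20.9 FPKM in control and 26.9, 62.1 and 59.3 FPKM in mimic (log2 fold change 0.31 ± 0.43 (SE), adjusted p = 0.64). In that locus control replicate 3 and mimic replicate 1 were each below 30 FPKM and the other 4 libraries above 50.

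The 3′ UTRs of the genes in each locus were searched for 3 heptamers on the transcript strand. CCAGCCC is the match of the miR-5001-5p seed, which miR-4492, miR-4498 and miR-762 share among the human mature microRNAs of RefSeq. AGTACAA and GTACAAA, which overlap in the octamer AGTACAAA, came from an earlier scan of fold changes in these same libraries, so their link to the higher rows is no independent evidence, and no mature human microRNA in the RefSeq table has a seed that matches either. At least 1 gene with a 3′ UTR was present in 764 merged loci, of which 20.8% held AGTACAA or GTACAAA, beside 17.2% of single-gene rows. AGTACAA or GTACAAA occurred in 54.3% of the 81 higher loci, in 3.75% of the 80 lower loci and in 18.6% of the 603 not called. In the 9062 single-gene rows with a 3′ UTR the shares were 41.7%, 4.80% and 13.7%. The pooled 3′ UTRs were longer in higher loci, with a median of 2577 bases, than in lower loci, with 1717, and those not called, with 1947, and the part of this length in the shares was not tested.

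CCAGCCC occurred in 24.7% of higher, 35% of lower and 32.01% of not called merged loci, and in 17.5%, 32.7% and 23.1% of the single-gene rows. Loci with CCAGCCC had a median log2 fold change of -0.06 and those without it -0.03. Of the 12 higher loci with the largest change 10 held AGTACAA or GTACAAA, and 5 held CCAGCCC. They include S1PR3/C9orf47, which met the level rule through the mimic group alone and held AGTACAA and CCAGCCC. Of the 12 lower loci 2 held AGTACAA or GTACAAA, in IFIT2 and ZNF107, and 3 held CCAGCCC. The 2 scan heptamers and these loci were picked by the same fold changes, so their counts are no evidence of a link. A match of letters is a description and not a site.

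In merged loci the letters also show which of the pooled genes carries them. Among 383 loci with the 3′ UTRs of 2 or more genes, 23 were higher and held AGTACAA or GTACAAA, in exactly 1 gene in 19 of them and in more than 1 in 4. The gene that held the letters was PPP3R1 and not WDR92, CALM2 and not STPG4, CYP51A1 and not LRRD1, RDH14 and not NT5C1B, COPB1 and not PSMA1, and HSPA1B and not HSPA1A. Which of the pooled genes changed was not tested. The heptamers and the higher loci were picked by the same fold changes, so the letters do not assign the change to a gene. In KDELR2/DAGLB and SNAPC1/HIF1A/AL137129.1 both protein-coding neighbours held them, as the windows of KDELR2 and DAGLB shown above. THBS1/AC037198.1, MIR671/CHPF2 and AC092718.4/CENPN were higher and held neither heptamer.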

How the data were processed

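Polyadenylated RNA of 6 MDA-MB-231 libraries (3 control, 3 mimic, per the labels) was sequenced. The submitters' processing notes name cutadapt 1.9, FastQC and the build GRCh38 (hg38); aligner, assembler, counting tool, strand setting and annotation release were not given in the sources used here. The deposited table holds, per the file headers, raw counts and FPKM of each library for annotated genes and assembled loci; the deposited FPKM are scaled to the library total and to 1 length per row. Rows that name no gene (38792, with 2.46 to 2.70% of counts) stayed out of library sizes and tests.

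Members are rows with 2 or more symbols and at least 1 FPKM in at least 3 of 6 libraries. The members, the gene lists and the rule for named loci were chosen with earlier results of these data known. Counts of all 11260 gene-naming rows at that level were fitted with edgeR 4.0.16 (R 4.3.3, TMM, glmQLFit and glmQLFTest, two-sided), with Benjamini-Hochberg adjustment over all of them and a threshold of 0.05; each SE is |log2 fold change| over the root of F. DESeq2 1.42.0 on counts, limma 3.58.1 on log2(FPKM + 1) and log2(FPKM + 0.1), other scalings, other filters, a replicate block and each library left out were alternatives. On simulated counts of the 11260 rows the test called 4, 40, 80 and 100% of rows changed 1.25, 1.5, 2 and 3-fold, with 2 false calls. In that simulation only a small part of the rows, all of them merged loci, were changed. No pair of libraries agreed within sampling noise (lowest chi-square over degrees of freedom 26.9). Gene classes, exons and 3′ UTRs (the longest of a gene's transcripts) are from GENCODE 29, in which 2032 of 2041 member gene IDs were found; all 19 microRNA symbols had a RefSeq mature sequence. Named loci are the 12 higher and 12 lower with the largest fold change that passed without overlap and reached a mean of 2 FPKM in the higher group, the 6 of highest FPKM, the 3 with most symbols, those naming MNK, MAPK, DUSP or TNF receptor genes, and up to 4 per list by smallest p. Another row of their own existed for 3 member gene IDs. Overlap of groups was judged on the deposited FPKM, which are scaled to library totals, whereas fold changes use TMM. With that scaling the median log2 fold change of all rows was -0.09, beside -0.01 with TMM. Overlap statements thus lean toward lower in mimic.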

Additional observations from a re-analysis of the deposited data

How the results depend on the processing

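The count of 84 higher merged loci lay between 56 and 98 under the other tools and filters and fell to 55 with libraries scaled to their totals. The count of 82 lower loci was 84 with RLE size factors, 86 with TMM factors from single-gene rows, 79 with unnamed loci included and 111 with DESeq2. It moved further, to 156 with libraries scaled to their totals, 130 and 128 with limma on log2(FPKM + 1) and log2(FPKM + 0.1), which keep that scaling, 53 with no filter on FPKM (27589 rows adjusted over) and 50 with a replicate block. The equal numbers of control and mimic replicates did not pair the samples (correlations -0.01, 0.06 and -0.05), and the replicate block left 72 higher loci. With 1 library left out, 58 to 77 loci were higher and 34 to 73 lower, and 28 to 37 of the 88 named loci passed, against 39 with all libraries; these fits have fewer samples. Over all rows 1073 to 1368 were higher and 503 to 854 lower in the same fits. Under the other settings 28 to 48 named loci passed, and with at least 5 FPKM 457 members were tested. No named locus that passed in either fit changed sign. The difference in the share of counts was -0.62 to -0.76 percentage points with 1 library left out, -0.70 over rows that name a gene and -0.26 without the mitochondrial locus. The last setting and the fit without mitochondrial rows, with 84 and 82 loci, were chosen after seeing the data.

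The median SE of a log2 fold change was 0.09 in merged loci and 0.10 in single-gene rows, on median totals of 10049 and 7223 counts. How many members are limited by depth was not measured. The simulation called 4% of rows changed 1.25-fold, but only a small part of its rows were changed. In the data 22.3% of all rows were called, which makes the adjusted threshold less strict, so the 4% does not carry over. Lower loci that passed had a median change of 1.29-fold. The share of such changes missed in the data was not measured.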

Other observations

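The largest change that did not pass was in AL139099.4/RN7SL1, which names the RNA of the signal recognition particle. The locus was at 121, 152 and 104 FPKM in control and 5.58, 64.1 and 88.0 FPKM in mimic (log2 fold change -1.18 ± 0.76, adjusted p = 0.32). Mimic replicate 1 lay far below all other libraries. RF00100/RN7SK, a small nuclear RNA that holds back transcription elongation, was at 0.653, 4.70 and 2.67 FPKM in control and 0.753, 0.379 and 3.38 FPKM in mimic (log2 fold change -0.74 ± 0.88, adjusted p = 0.59), with full overlap of the groups.

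In other loci that did not pass, 1 or 2 libraries of a group stood apart. DGKH/FHP1, with a diacylglycerol kinase, was at 3.35, 3.60 and 3.35 FPKM in control and 3.26, 0.933 and 0.958 FPKM in mimic (log2 fold change -0.93 ± 0.47, adjusted p = 0.21). WFIKKN1/RAB40C was at 3.36, 2.88 and 3.09 FPKM in control and 2.54, 0.907 and 0.599 FPKM in mimic (log2 fold change -1.13 ± 0.48, adjusted p = 0.14). These 4 loci were chosen after their values were seen. Of the metallothionein loci, MT1X/DPPA2P4/AC026461.1 was lower, at 37.2, 41.6 and 36.4 FPKM in control and 23.6, 20.5 and 29.6 FPKM in mimic (log2 fold change -0.56 ± 0.14, adjusted p = 0.03), while MT1A/MT1H/MT2A did not pass, and the difference between them was not tested.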
